A study of Rattus norvegicus with 10 samples.

Results

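Genes of iron uptake, storage and hepcidin control were examined in the livers of rats fed HMB, and of 10 such genes none had a probe set that passed the test. The genes were Hamp, Tf, Tfrc, Tfr2, Hfe, Slc40a1, Slc11a2, Cp, Fth1 and Bmp6, and a probe set was taken when its array annotation gave exactly 1 of these symbols. By this rule 17 of 31042 probe sets were found, for 8 of the 10 genes. Tf and Fth1 were carried only by 3 probe sets that the annotation assigns to another gene as well, and these are described separately. Each probe set gives 1 log2 signal per array, made by the authors with RMA (robust multi-array average), and a difference of 1 is a 2-fold change.

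The control group was 5 Harlan Sprague Dawley rats with 0 ppm in the feed for 13 weeks. The HMB group was 5 rats of the same strain fed 2-hydroxy-4-methoxybenzophenone, an ultraviolet filter also called oxybenzone, at 10000 ppm for 13 weeks. All animals ate the NTP-2000 diet, and 1 piece of liver per rat was measured on 1 array. For HMB 1 the dose was labelled 0 ppm, in conflict with its title, so it was analysed with the HMB animals by title and chemical. Neither age nor sex stood in the labels used here. The animals were caged in fives, so cage and HMB cannot be told apart if a group shared 1 cage.

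Iron enters most cells as transferrin bound to its receptor Tfrc, passes out of the endosome through the importer Slc11a2, and is held in ferritin. The liver also sets the iron supply of the whole body. Its hepatocytes secrete hepcidin, the Hamp product, which binds the exporter ferroportin and causes its removal from the membrane, so that less iron reaches the plasma. Bmp6 from the endothelial cells of the liver sinusoids drives Hamp through SMAD proteins, Hfe and Tfr2 report how much iron transferrin carries, and interleukin 6 drives Hamp through Stat3.

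Both routes to Hamp are known to meet at its proximal promoter, which is why that stretch is shown. The bases below are from RefSeq on GRCr8 and end 51 bases before the annotated start of Hamp, at chr1:95300322-95300471 on the minus strand, with capitals for GGCGCC (the core of the known BMP-responsive element) and for TTCNNNGAA (the STAT motif). The second stretch lies directly before the start of Tfrc, the gene with the largest differences, at chr11:81690319-81690468 on the minus strand. Its capitals mark GGCGCC and TACGTG, a form of the hypoxia-response motif.
Hamp: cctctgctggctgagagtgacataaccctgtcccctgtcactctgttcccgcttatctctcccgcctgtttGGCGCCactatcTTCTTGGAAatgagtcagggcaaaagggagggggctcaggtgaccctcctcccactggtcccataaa
Tfrc: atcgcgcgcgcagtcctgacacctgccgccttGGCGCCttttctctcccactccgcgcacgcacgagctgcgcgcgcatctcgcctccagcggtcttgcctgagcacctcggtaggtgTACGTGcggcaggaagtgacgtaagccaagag
In Hamp the BMP motif begins 129 and the STAT motif 117 bases before the start. The motifs were searched on both strands of 33469 windows of 300 bases, 9 of which belong to 8 of the 10 iron genes. Of all windows 11.0% held GGCGCC, 8.87% TTCNNNGAA and 3.49% TACGTG. Among the 9 windows these were found in 2, in 1 and in 1, namely in Hamp and Tfrc. A match describes the letters and is no evidence of binding.

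Across all probe sets 528, or 1.7%, passed at a limma adjusted p under 0.05 by the Benjamini-Hochberg method, with 219 higher in HMB (0.705%) and 309 lower (0.995%). HMB arrays had a narrower spread of log2 values, with SDs of 2.38 to 2.43 against 2.43 to 2.50 in controls. The signal of RNA spiked in before labelling, relative to that of hybridisation controls, was -1.96 to -1.47 in HMB and -2.19 to -1.90 in controls. With this signal as a covariate 0 probe sets passed, and 3806 had an unadjusted p under 0.05. The count of 528 was 0 or 1 without control 2, 3, 4 or 5 and without HMB 4 or HMB 5, and 65 without HMB 2, 243 without HMB 3, 997 without HMB 1 and 1653 without control 1. Probe sets in the upper 2 of 4 equal classes of mean signal lay lower in HMB, with median log2 differences of -0.08 and -0.10, and those in the lower 2 lay higher, with 0.09 and 0.11. The hepatocyte marker list was bright, at a mean log2 signal of 12.46 to 12.64 in controls and 12.42 to 12.55 in HMB, with 0 of 8 markers called. Of the sex-linked transcripts listed, Xist, Eif2s3y and Uty were measured, and none of the 3 was called. Xist was dim, at 2.20 to 2.70 in controls and 2.48 to 2.69 in HMB. Eif2s3y was at 8.63 to 8.89 in controls and 8.86 to 9.17 in HMB, and Uty at 7.61 to 7.98 and 7.56 to 8.02.

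The first question was whether the iron genes differed in level between HMB-fed and control livers. Of the 17 probe sets 0 passed the test, against 1.7% of all probe sets, and the smallest adjusted p was 0.0788. In none of the 17 did the 5 HMB and the 5 control values stand apart without overlap, which 5.77% of all probe sets did. The 17 differences had a median of 0.03, with 9 above 0 and 8 below, and the median of all probe sets was 0.01. An unadjusted p under 0.05 was found in 4 of the 17, or 23.5%, and in 24.1% of all probe sets. For 14 of the 17 the 95% interval of the difference lay wholly within a 1.5-fold change in either direction. All 17 had a mean signal above that of the dimmest 25% of probe sets.

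**Figure D1:**
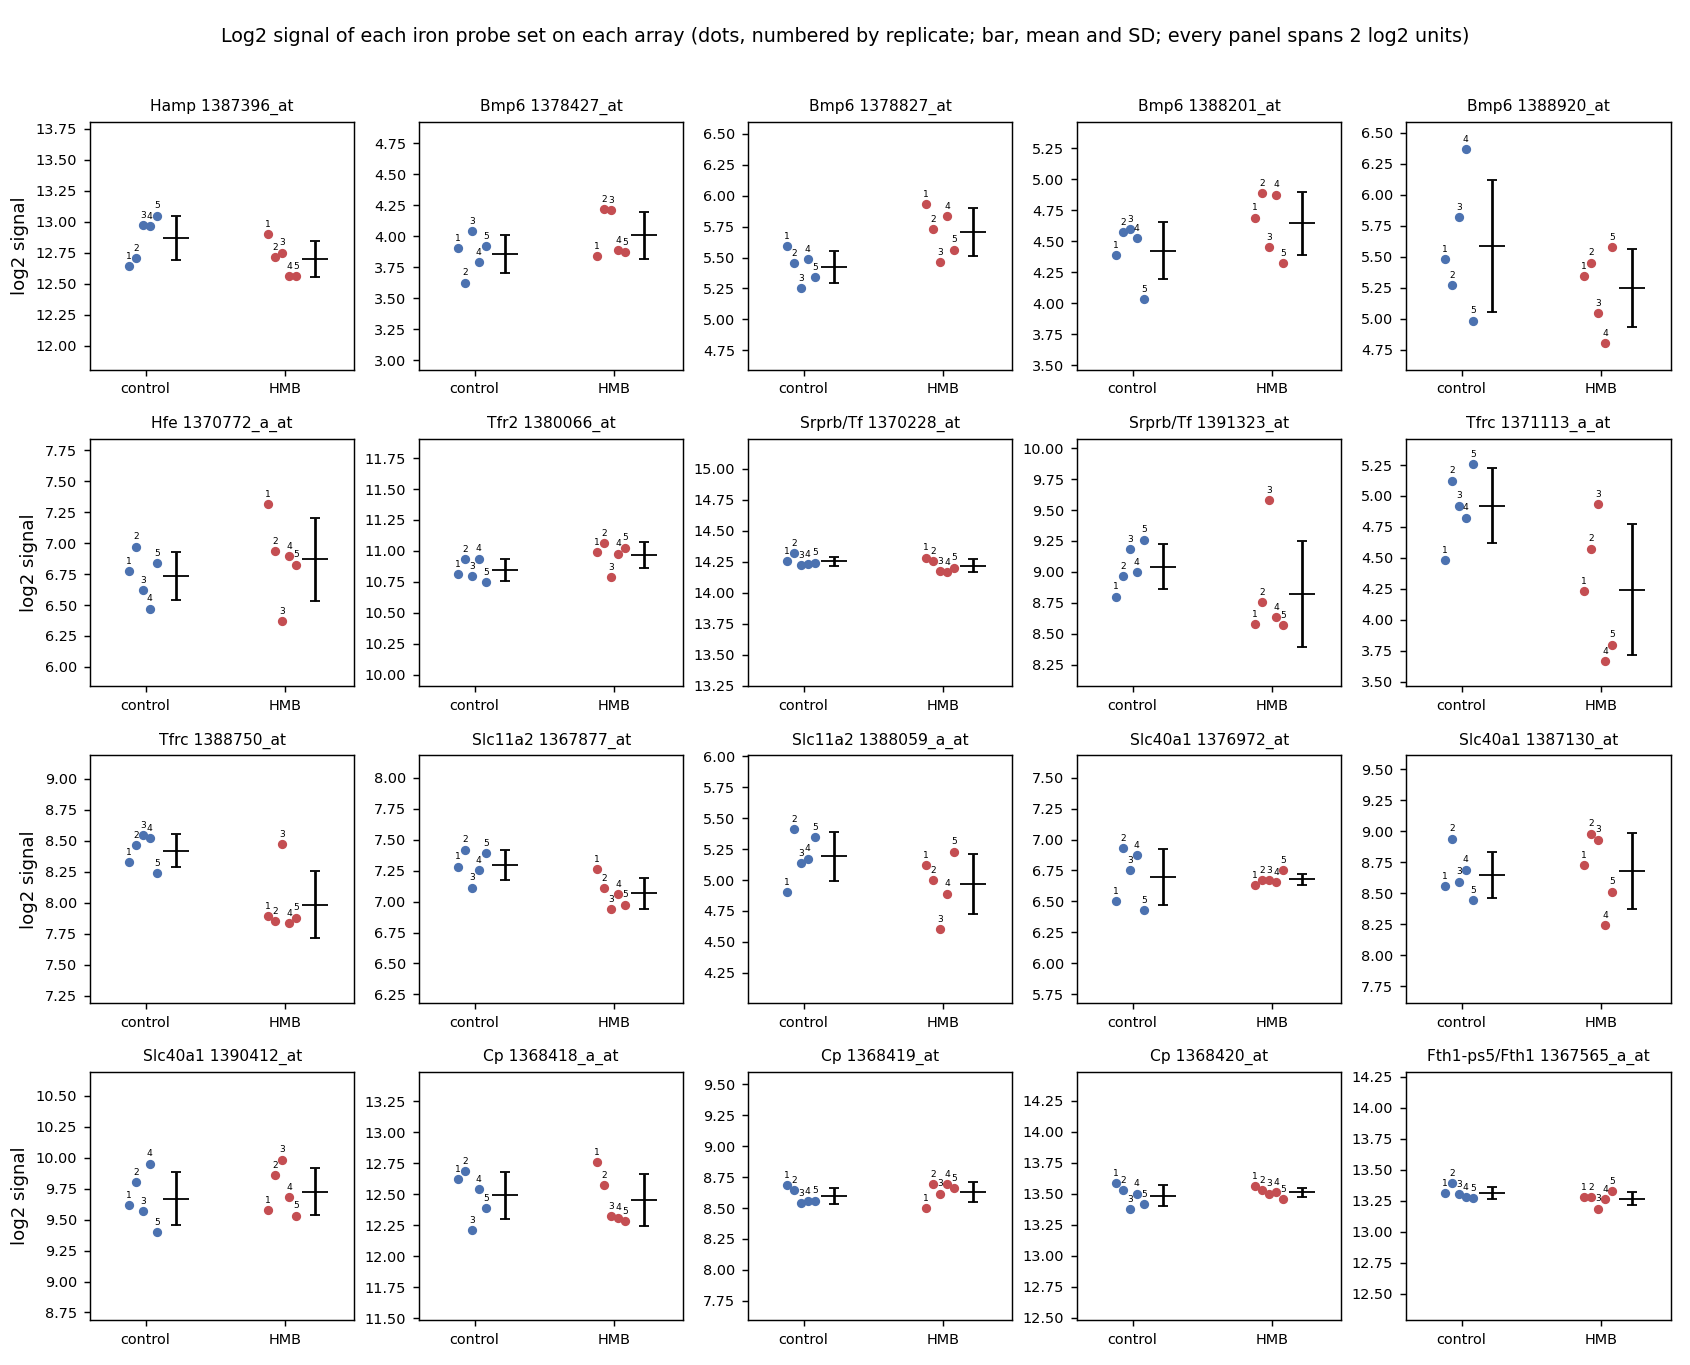
Log2 signal (vertical axes, each spanning 2 log2 units) of the 17 probe sets of the iron genes and the 3 shared ones on 5 control and 5 HMB arrays, with dots numbered by replicate and bars for mean and SD. The groups overlap in all 20 panels, and in Tfrc 1388750_at 4 HMB dots lie below all controls while HMB 3 lies at 8.47.

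Hamp, the hepcidin gene, was bright and nearly even across the animals. Its log2 signals were 12.64, 12.71, 12.97, 12.97 and 13.05 in controls 1 to 5 and 12.90, 12.71, 12.75, 12.56 and 12.56 in HMB 1 to 5. The HMB values lay within the control range except in HMB 4 and HMB 5, which lay just below it. Controls averaged 12.87 ± 0.18 and HMB animals 12.70 ± 0.14 (SD, n = 5 each). The difference of -0.17 ± 0.10 (SE, limma adjusted p = 0.323) had a 95% interval from -0.39 to 0.05, that is from 0.762-fold to 1.04-fold. A fall of Hamp beyond that lower bound, or a rise beyond the upper one, lay outside the interval.

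Bmp6, the ligand upstream of Hamp, had 4 probe sets that did not run the same way. Probe set 1378827_at, the brightest by its mean over all 10 arrays, read 5.59, 5.45, 5.26, 5.49 and 5.34 in controls 1 to 5 and 5.93, 5.73, 5.46, 5.83 and 5.56 in HMB 1 to 5. There HMB 1, HMB 2 and HMB 4 lay above all controls while HMB 3 and HMB 5 lay among them, and the difference was 0.28 ± 0.10 (SE, n = 5 and 5, limma adjusted p = 0.137). Probe sets 1388201_at and 1378427_at differed by 0.22 and 0.15 (adjusted p = 0.333 and 0.402). Probe set 1388920_at read 5.48, 5.27, 5.82, 6.37 and 4.99 in controls and 5.35, 5.45, 5.05, 4.80 and 5.58 in HMB. Its difference of -0.34 ± 0.23 (adjusted p = 0.371) came with the widest control spread of the 17 probe sets, an SD of 0.54. Markers of liver endothelial cells, the source of Bmp6, were below 0 in 7 of 7 measured genes with 0 called. All 7 were in the upper 2 classes of mean signal, where 62.7% and 74.7% of all probe sets lay below 0. The mean log2 signal of the 7 markers was 7.11 to 8.34 in controls and 7.28 to 7.86 in HMB. The part of these markers in the Bmp6 values was not tested. In whole liver, fewer cells of a type and less RNA per cell cannot be told apart.

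The iron-sensing partners Hfe and Tfr2 differed little. Hfe, an MHC class I-like protein that binds the transferrin receptors, read 6.77, 6.97, 6.62, 6.47 and 6.84 in controls and 7.32, 6.93, 6.37, 6.89 and 6.83 in HMB. HMB 1 was the highest and HMB 3 the lowest of the 10 animals, and the difference was 0.13 ± 0.15 (SE, n = 5 and 5, limma adjusted p = 0.612). Tfr2, the hepatocyte receptor that senses iron-loaded transferrin, read 10.82, 10.93, 10.80, 10.94 and 10.75 in controls and 10.99, 11.07, 10.79, 10.98 and 11.03 in HMB. All HMB animals except HMB 3 lay above all controls, by a small margin. The difference was 0.12 ± 0.08 (adjusted p = 0.356), with an interval from 0.966-fold to 1.23-fold.

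The receptor Tfrc had the largest differences of the 8 genes, lower in HMB on both of its probe sets, and neither passed the test. Its mRNA is known to be kept stable by iron regulatory proteins when cell iron is low. Probe set 1388750_at read 8.33, 8.46, 8.55, 8.52 and 8.24 in controls 1 to 5 and 7.89, 7.85, 8.47, 7.83 and 7.88 in HMB 1 to 5. The other 4 HMB animals lay close together below all controls, and HMB 3 lay among the controls. Controls averaged 8.42 ± 0.13 and HMB animals 7.99 ± 0.27 (SD, n = 5 each), a difference of -0.43 ± 0.12 (SE, limma adjusted p = 0.0788), or 0.74-fold. Without HMB 3 the difference was -0.56 and passed the test (adjusted p = 0.0337). Over the other alternatives the adjusted p ran up to 0.265.

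The dimmer Tfrc probe set, 1371113_a_at, read 4.48, 5.12, 4.92, 4.83 and 5.26 in controls and 4.23, 4.57, 4.94, 3.66 and 3.80 in HMB. HMB 1, HMB 4 and HMB 5 lay below all controls, and HMB 3 was again the highest of its group. The difference was -0.68 ± 0.22 (SE, n = 5 and 5, limma adjusted p = 0.106), or 0.624-fold with an interval from 0.447 to 0.872, and without HMB 3 it was -0.85 (adjusted p = 0.0642). Tfrc is abundant in red cell precursors. The 7 measured erythroid markers all had differences above 0, with 0 called. All but Hbb were in the lower 2 classes of mean signal, where only 25.5% and 27.6% of all probe sets lay below 0. The mean log2 signal of the 7 was 4.22 to 4.55 in controls and 4.46 to 4.83 in HMB, highest in HMB 3. The part of the erythroid markers in the Tfrc values was not tested.

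Slc11a2, the importer DMT1 that moves iron out of endosomes, was lower in HMB by the same amount on both probe sets without passing the test. Probe set 1367877_at read 7.28, 7.42, 7.11, 7.25 and 7.39 in controls and 7.26, 7.11, 6.94, 7.06 and 6.98 in HMB. HMB 2 to HMB 5 lay below all controls, HMB 2 only just, and HMB 1 lay among them. The difference was -0.22 ± 0.09 (SE, n = 5 and 5, limma adjusted p = 0.154), or 0.856-fold. It was smaller under other scalings of the arrays, at -0.10 after cyclic loess (adjusted p = 0.561) and -0.09 after quantile normalization (0.633). With the signal of spiked RNA as a covariate it was -0.07 (0.824). Probe set 1388059_a_at differed by -0.22 ± 0.13 (adjusted p = 0.291), and over the alternatives by -0.30 to -0.13.

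Transferrin itself was read only by probe sets annotated to both Srprb and Tf, so the values may belong to either gene. On the brighter, 1370228_at, controls lay between 14.22 and 14.32 and HMB animals between 14.17 and 14.28, a difference of -0.04 ± 0.07 (SE, n = 5 and 5, limma adjusted p = 0.773). On the dimmer, 1391323_at, the signals were 8.80, 8.97, 9.18, 9.00 and 9.26 in controls and 8.58, 8.76, 9.58, 8.63 and 8.57 in HMB. As with Tfrc, 4 HMB animals lay below all controls, and HMB 3 lay above them all. The difference was -0.22 ± 0.18 (adjusted p = 0.455).

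Export genes showed no difference beyond the spread between animals. Slc40a1, the exporter ferroportin, read 9.62, 9.80, 9.57, 9.95 and 9.40 in controls and 9.58, 9.86, 9.98, 9.68 and 9.53 in HMB on its brightest probe set, 1390412_at. The groups covered almost the same range, and its 3 probe sets differed by -0.02 to 0.06, with limma adjusted p from 0.793 to 0.925. The widest of the 3 intervals ran from 0.828-fold to 1.27-fold. Ferroportin is abundant in Kupffer cells, the macrophages of the liver, whose 7 measured markers had a mean log2 signal of 6.85 to 8.68 in controls and 7.52 to 8.27 in HMB, with 0 called.

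Ceruloplasmin, Cp, the copper ferroxidase of plasma that helps load exported iron onto transferrin, did not differ beyond the spread between animals either. Its brightest probe set, 1368420_at, read 13.59, 13.53, 13.38, 13.50 and 13.42 in controls and 13.56, 13.53, 13.50, 13.51 and 13.45 in HMB. All HMB values lay inside the control range. The difference was 0.03 ± 0.07 (SE, n = 5 and 5, limma adjusted p = 0.835), with an interval from 0.916-fold to 1.14-fold, and the other 2 Cp probe sets differed by -0.04 and 0.03 (adjusted p = 0.862 and 0.798).

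The ferritin heavy chain, Fth1, which oxidises iron for storage, was read by 1 probe set annotated also to the pseudogene Fth1-ps5. The signals were 13.31, 13.39, 13.30, 13.28 and 13.27 in controls and 13.28, 13.28, 13.19, 13.26 and 13.33 in HMB. The groups overlapped, and the difference was -0.04 ± 0.07 (SE, n = 5 and 5, limma adjusted p = 0.717), with an interval from 0.875-fold to 1.07-fold.

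**Figure D2:**
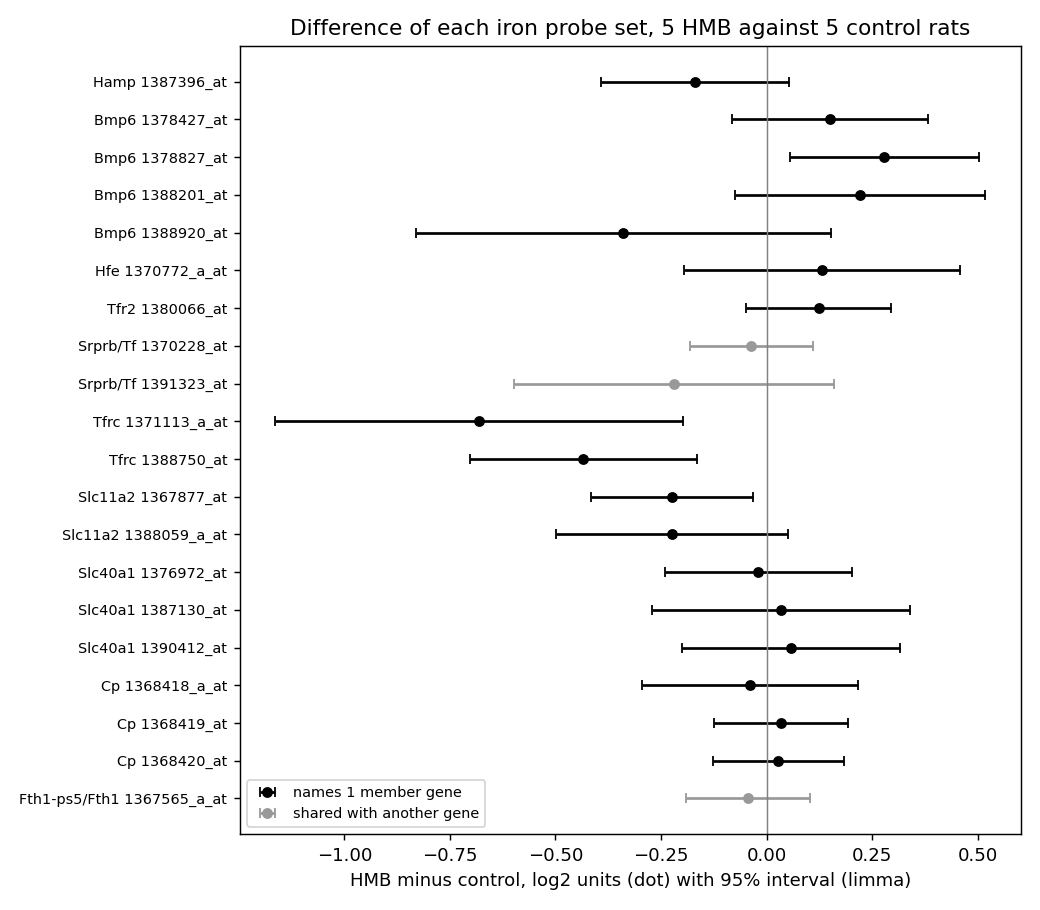
HMB minus control in log2 units (horizontal axis) for each probe set of the iron genes, with dots for the difference, lines for the limma 95% interval, and grey for probe sets shared with another gene. The intervals of both Tfrc probe sets, 1 of Slc11a2 and 1 of Bmp6 leave out 0, while those of Slc40a1, Cp and Fth1 straddle it.

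The next question was how the other genes of iron handling stood in the same livers. Of 73 listed genes, 68 had probe sets, 103 in all, and 4 of these changed, 1 upward and 3 downward, or 3.88% against 1.7% of all probe sets. The 4 were Smad1 and Smad5, the SMAD proteins that carry the Bmp6 signal to Hamp, Stat3, which carries that of interleukin 6, and Fgb, the fibrinogen beta chain, on a dim probe set. Of the 103 differences 60 lay below 0 and 43 above, with a median of -0.04. The share below 0 was 58.3%, against 47.6% of all probe sets. Among all probe sets it was 62.7% and 74.7% in the upper 2 classes of mean signal and 25.5% and 27.6% in the lower 2. The groups did not overlap in 5 of the 103, or 4.85%, against 5.77% of all probe sets.

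In the BMP and SMAD list, 2 of 33 probe sets fell, 0 rose and 31 did not pass. The 2 were 6.06%, against 1.7% of all probe sets in either direction and 0.995% lower. The groups did not overlap in 3 of the 33, or 9.09%, against 5.77% of all probe sets. The median was -0.08. All probe sets of the upper 2 classes of mean signal had medians of -0.08 and -0.10. Those of the lower 2 had 0.09 and 0.11, and the list has probe sets in all 4 classes. An unadjusted p under 0.05 was found in 14 of the 33, or 42.4%, 12 of them lower, against 24.1% of all probe sets. Smad5 probe set 1378255_at read 5.84, 5.90, 6.03, 5.89 and 5.82 in controls and 5.40, 5.37, 5.67, 5.51 and 5.21 in HMB. All HMB values lay below all controls, and the probe set fell by 0.46 ± 0.09 log2 units (SE, n = 5 and 5, limma adjusted p = 0.0362). Probe set 1388524_at also showed no overlap and differed by -0.25 (adjusted p = 0.122), while the other 2 Smad5 probe sets differed by -0.07 and 0.03. Smad1 probe set 1369174_at read 5.95, 6.27, 6.17, 6.27 and 6.20 in controls and 6.00, 5.52, 5.34, 5.70 and 5.39 in HMB. Here HMB 1 lay just above control 1 and the other 4 HMB animals lay below all controls. It fell by 0.58 ± 0.12 (adjusted p = 0.0420), and its second probe set differed by -0.29 (adjusted p = 0.111).

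Receptors and inhibitors of the same route did not pass. Acvr1, the type I receptor ALK2, differed by -0.55 ± 0.13 (SE, n = 5 and 5, limma adjusted p = 0.0568) on probe set 1385069_at and by -0.33 on its other 2. Acvr1 1385069_at passed without control 1 (adjusted p = 0.0454) or without HMB 1 (adjusted p = 0.0240), and also with array weights (0.0479), with a trended robust prior (0.0466) or with every array set to the same median (0.0470). In all it passed in 7 of 21 alternatives, with differences from -0.69 to -0.33 and adjusted p up to 0.504. Bmpr2, the type II receptor, showed no overlap on probe set 1376843_at, with controls from 6.54 to 6.86 and HMB from 5.58 to 6.51, a difference of -0.47 (adjusted p = 0.110), and a dimmer probe set differed by 0.24. Smad7, the inhibitory SMAD that BMP signalling induces, differed by -0.50 (adjusted p = 0.0967) on 1368896_at, and by 0.25 and 0.04 on the dimmer 2. Without control 1 that Smad7 probe set passed (-0.61, adjusted p = 0.0384). This was 1 of 22 alternatives, over which the adjusted p ran up to 0.497. Smad6, also an inhibitory SMAD, lay above 0 on all its probe sets, at 0.22, 0.15, 0.06 and 0.05. Most of these were in the lower 2 classes of mean signal. The receptors Bmpr1a and Acvr2a were at -0.24 and -0.13.

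In the list of inflammatory input, which holds the interleukin 6 route and acute phase proteins, 1 of 32 probe sets rose, 1 fell and 30 did not pass, with a median of -0.16. The 2 called were 6.25%, against 1.7% of all probe sets. The groups did not overlap in 2 of the 32, or 6.25%, against 5.77% of all probe sets. Stat3 probe set 1370224_at read 8.59, 9.00, 8.76, 8.97 and 9.04 in controls and 8.35, 8.30, 8.03, 8.13 and 8.58 in HMB. The groups did not overlap, with HMB 5 just below control 1, and it fell by 0.59 ± 0.12 (SE, n = 5 and 5, limma adjusted p = 0.0379). Its second probe set differed by -0.34 (adjusted p = 0.0924), and passed without control 1 (adjusted p = 0.0319). This was 1 of 21 alternatives, over which the adjusted p ran up to 0.448. Fgb probe set 1371234_at rose by 0.68 ± 0.13 (adjusted p = 0.0335) from a dim 3.22 to 3.89. The bright Fgb probe set, 1370511_at, was at 13.65 in controls and differed by -0.06 (adjusted p = 0.599).

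These 4 calls were close to the threshold. After cyclic loess, which evens out differences that vary with signal level, Smad5, Smad1, Stat3 and Fgb kept their direction at -0.39, -0.49, -0.49 and 0.57, with adjusted p from 0.0540 to 0.0705. Quantile normalization also ended all 4, at adjusted p from 0.0592 to 0.0956, and with HMB 1 counted as a control Smad1 alone passed (adjusted p = 0.0285). All 4 calls ended as well without control 2, 3, 4 or 5 and without HMB 4 or 5, with the directions kept. Those of Smad5, Stat3 and Smad1 ended without HMB 2, and those of Stat3 and Smad1 also without HMB 3. With the signal of spiked RNA as a covariate all 4 ended, at adjusted p from 0.241 to 0.344. The GAPDH 3' minus 5' log2 signal, a measure of RNA quality, was 1.31 and 1.38 in HMB 1 and HMB 2, 1.90 to 2.09 in HMB 3, HMB 4 and HMB 5, and 1.38 to 1.77 in controls. With it as a covariate Smad1 (adjusted p = 0.0609) and Stat3 (0.0581) no longer passed, while Smad5 (0.0473) and Fgb (0.0393) did. All 4 passed without HMB 1 and 2 and none without HMB 3, 4 and 5, which leaves 2 HMB animals.

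**Figure D3:**
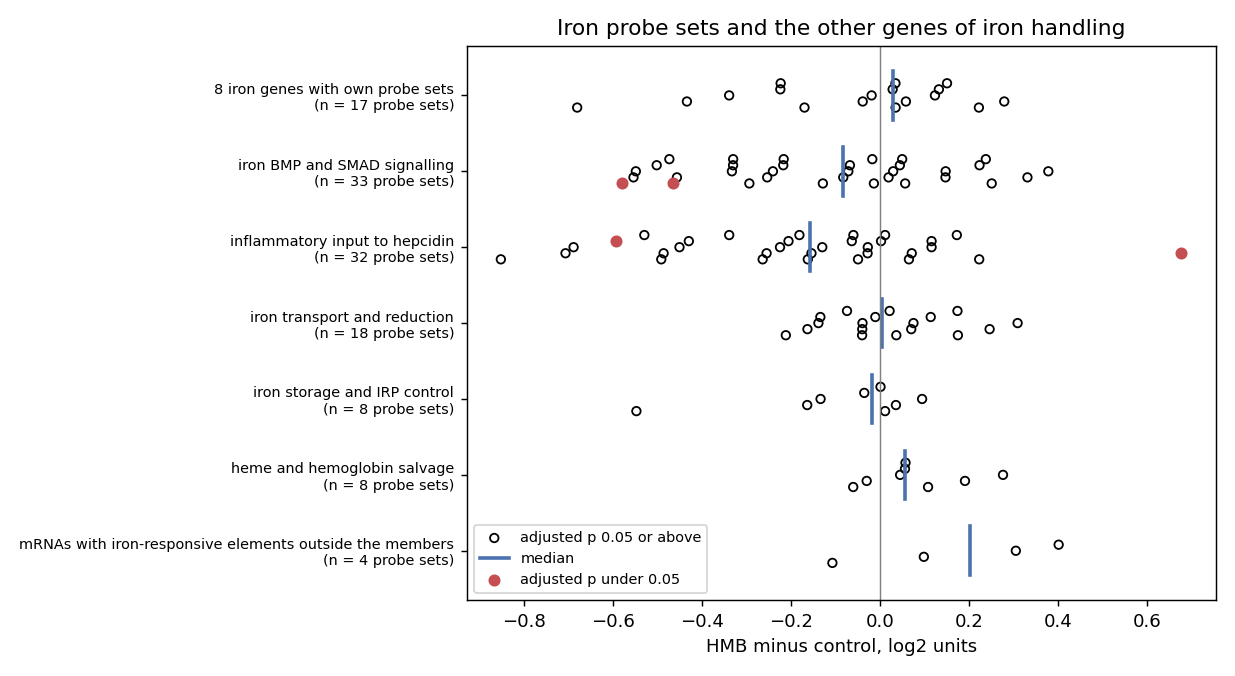
HMB minus control in log2 units (horizontal axis) for the probe sets of the iron genes and of 6 lists of other genes of iron handling, each circle 1 probe set, filled where the limma adjusted p was under 0.05, with a bar at the median. The 4 filled circles lie in the BMP and SMAD list and the list of inflammatory input.

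The remaining lists held 0 called probe sets. In the storage and iron regulatory protein list, with 8 probe sets and a median of -0.02, Ireb2, which encodes iron regulatory protein 2, a protector of Tfrc mRNA, read 6.21, 6.42, 6.76, 6.19 and 6.65 in controls and 6.40, 6.14, 5.82, 5.78 and 5.35 in HMB. HMB 2 to HMB 5 lay below all controls and HMB 1 among them. The difference was -0.55 ± 0.18 (SE, n = 5 and 5, limma adjusted p = 0.105). Without HMB 1 it was -0.67 and passed (adjusted p = 0.0491). Ireb2 passed in 3 of 22 alternatives, over which the difference ran from -0.80 to -0.17 and the adjusted p up to 0.756. Aco1, which encodes iron regulatory protein 1, was brighter, at 9.83 in controls, and differed by 0.09 (adjusted p = 0.480). The 18 probe sets of transport and reduction had a median of 0.01 and differences from -0.21 to 0.31. The 8 of heme and hemoglobin salvage, among them Hmox1, the heme oxygenase, at 0.06, had a median of 0.06. The 4 of other mRNAs with iron-responsive elements had a median of 0.20 and adjusted p from 0.134 to 0.490. They were Alas2 at 0.40 and Epas1 at 0.30, both dim, Cdc42bpa at 0.10 and a bright Epas1 probe set at -0.11.

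**Figure D4:**
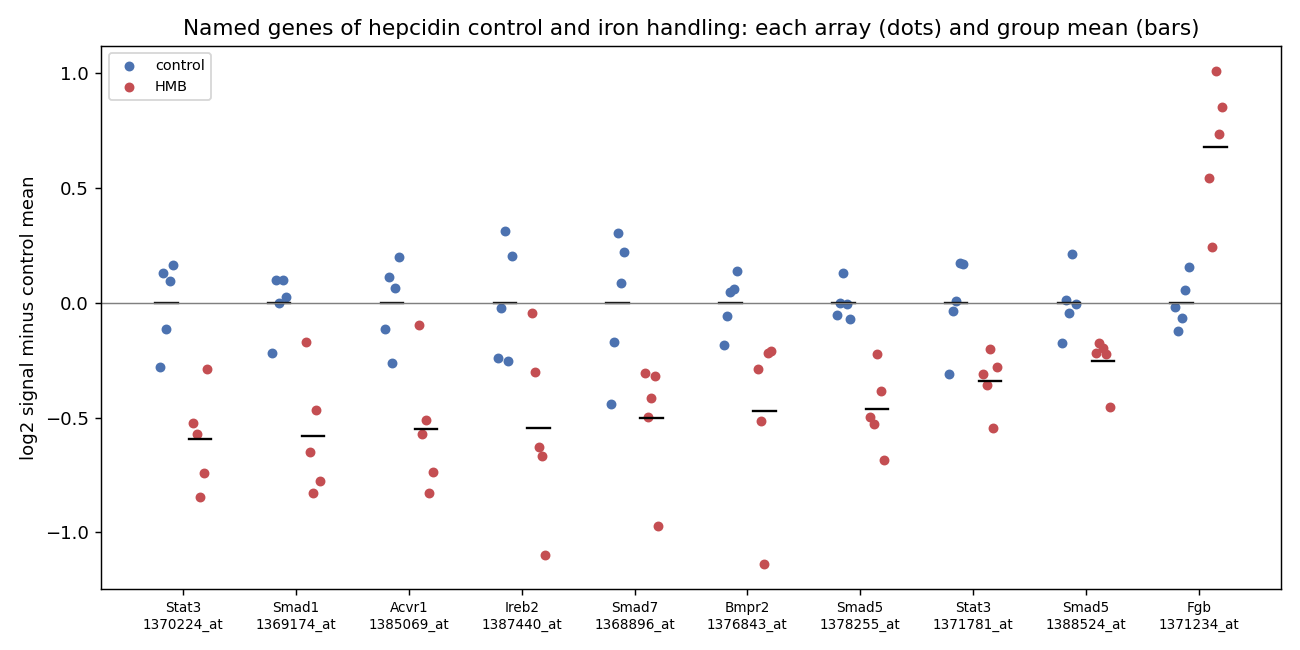
Log2 signal minus the control mean (vertical axis) of the 10 probe sets, out of 103, chosen for the smallest p or for groups without overlap, with dots for arrays and bars for group means. In HMB 9 of the means lie below 0, from -0.59 for Stat3 to -0.25 for Smad5 1388524_at, and Fgb 1371234_at lies at 0.68.

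Finally, the genes whose signal ran most like that of Hamp from animal to animal were listed, by Pearson correlation over the 10 arrays after each group's mean was subtracted. The closest 5 probe sets were Crem at 0.951, Coil at 0.949, a second Crem probe set at 0.933, Qsox2 at 0.922 and Cldn11 at 0.921. Crem encodes a transcription factor of the cAMP response, and its first probe set was 6.91 in controls and 6.23 in HMB (limma adjusted p = 0.0424). These correlations are a description, chosen as the highest among all named probe sets, and the arrays share their normalization. No other iron gene came close in the same direction, the nearest being Tfrc 1371113_a_at at 0.534. Cp 1368419_at ran opposite at -0.879, while the brightest Cp probe set, 1368420_at, was at -0.403 and 1368418_a_at at -0.0095.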

How the data were processed

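Total liver RNA of 10 rats was measured on Affymetrix rat genome arrays. The authors deposited log2 signals for 31099 probe sets, made with RMA (no version stated), per the submitters' processing notes. The log2 values were used as deposited. The 57 control probe sets were left out of tests, and no 2 of the 10 arrays were identical. The platform annotation gave 20826 probe sets 1 symbol, 436 several and 9780 none. Symbols outside the iron genes were updated through gene identifiers in the RefSeq table of GRCr8, which held 20758. Replicate numbers follow the order of deposition.

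Tests used limma 3.58.1 in R 4.3.3 (lmFit, eBayes, 8 residual and 4.93 prior degrees of freedom), with Benjamini-Hochberg adjustment over 31042 probe sets and a threshold of 0.05. On simulated data for HMB minus control with 31042 probe sets, 200 of them changed, 41% of changes of 0.5 and 95% of changes of 1 were recovered. The noise was normal and drawn independently for each probe set and array. Shifts shared across an array were not simulated, so these rates need not hold for the real arrays. P-values treat the animals as independent, and 5 arrays per group limit the precision.

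Members and lists were chosen with earlier results of these data known. Named genes of the other lists were those called, those without overlap and the 8 probe sets with the smallest p. A few others of these lists were added after their values were seen. Array values were given for each gene's brightest probe set and for the 3 largest differences. Marker lists were averaged over each marker's brightest probe set. Alternatives were other scalings, priors, weights, filters, covariates and sets of arrays. Figures were drawn with matplotlib 3.10.9.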

Additional observations from a re-analysis of the deposited data

Results flagged for a closer look

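In 4 of 60 groups of 5 values examined, 1 animal stood apart from the other 4 of its group by more than Dixon's limit, which chance exceeds in about 1 of 20 groups. HMB 3 stood above the other HMB animals on Tfrc 1388750_at, at 8.47 against 7.83 to 7.89. It did so again on the probe set shared by Srprb and Tf, 1391323_at, at 9.58 against 8.57 to 8.76. HMB 5 stood below the other HMB animals on Smad7 1368896_at, at 6.16 against 6.63 to 6.82, and on Smad5 1388524_at, at 6.54 against 6.77 to 6.82.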

How the results depend on the processing

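No paired analysis was possible because the replicate numbers only follow the order of deposition. Over 22 alternatives, the 17 probe sets of the iron genes kept direction and side of the threshold in 341 of 365 comparisons, turned direction in 23 and passed in 1, Tfrc without HMB 3. Both Tfrc and both Slc11a2 probe sets, Hamp, Tfr2 and each Bmp6 probe set kept their direction in all of theirs. Hamp ran from -0.24 to -0.06, the latter without HMB 3, 4 and 5.

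With each animal left out in turn, the number of iron probe sets called ran from 0 to 1, that of those without overlap from 0 to 2 (Tfrc 1388750_at and Tfr2 without HMB 3, where 8.04% of all probe sets showed none), that of other iron pathway probe sets called from 0 to 9 and that of all probe sets from 0 to 1653. Iron pathway and all probe sets called were 0 and 125 after cyclic loess, 0 and 106 after quantile normalization, 1 and 244 with 1 probe set per gene, 0 and 0 with the poly-A covariate, 2 and 257 with the GAPDH 3' minus 5' covariate, 9 and 2094 without HMB 1 and 2, and 0 and 0 without HMB 3, 4 and 5. Array weights gave 925 probe sets. Iron probe sets without overlap were 1 of 17 with HMB 1 counted as control (6.13% of all probe sets), 1 without HMB 1 and 2 (19.3% of all) and 4 without HMB 3, 4 and 5 (16.6% of all), where fewer arrays are compared. For the other shifts the cause was not tested.

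Reversed differences, none called, were at most 0.22 in size. Cp 1368418_a_at was at 0.22 with the poly-A covariate, 0.031 with the GAPDH covariate and 0.18 without HMB 3, 4 and 5. At the same median Cp 1368419_at was at -0.0028, Cp 1368420_at at -0.0095 and Slc40a1 1387130_at at -0.0032. Without HMB 3, 4 and 5 Cp 1368419_at was at -0.00036 and Srprb/Tf 1370228_at at 0.017, the latter at 0.011 with the poly-A covariate. Cyclic loess put Cp 1368420_at at -0.0072 and Slc40a1 1376972_at at 0.10, and quantile normalization the latter at 0.12. With HMB 1 as control Hfe was at -0.077 and Slc40a1 1376972_at at 0.0018, and without HMB 1 and 2 Hfe was at -0.040 and Slc40a1 1387130_at at -0.082. With animals left out in turn, Cp 1368418_a_at ran from -0.12 to 0.0096, Slc40a1 1376972_at from -0.086 to 0.039, Slc40a1 1387130_at from -0.041 to 0.14 and Slc40a1 1390412_at from -0.010 to 0.13.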

Other observations

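The following genes of the iron pathway lists were chosen for mention after their values were seen. In the list of inflammatory input, Cebpa, a transcription factor of hepatocytes that drives Hamp, had 5 probe sets, all below 0, with differences from -0.23 to -0.85 and none called (limma adjusted p from 0.154 to 0.319). On the probe set with the largest difference, 1384126_a_at, the SD was 0.90 in HMB and 0.36 in controls (n = 5 each). Il6st, the shared receptor of the interleukin 6 family, was at -0.43, -0.45 and -0.49 on 3 probe sets and at 0.00 on another, none called. Of the acute phase proteins with 1 probe set in this list, A2m was at -0.69 (adjusted p = 0.189), Crp at -0.21, Serpina3n at -0.16, Lbp at -0.15, Fgg at -0.06, C3 and Itih3 at -0.03, Lcn2 at 0.01 and Orm1 at 0.17, none called. In the list of heme and hemoglobin salvage, Hp was at -0.06 and Hpx at -0.03. In the BMP and SMAD list, Hjv, the BMP co-receptor hemojuvelin, was at 0.38 ± 0.17 (SE, adjusted p = 0.201), and Id1, a gene induced by BMP signalling, was at -0.33 (adjusted p = 0.189). Others of that list went either way. Bmp2 was at -0.55 and -0.46, Atoh8 at -0.07, Smad6 at 0.05 to 0.22 and Bmp4 at 0.33, none called.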
